A study of Schizosaccharomyces pombe with 6 samples.

Results

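RNA that co-purified with Red5-FTP was compared with total RNA of the same fission yeast strain on 2 tiling microarrays, out of 6 arrays in the series. Both arrays were taken because their labels name Red5 as the tagged protein, and no measured value entered that choice. Each array held 174063 tile probes, named by running numbers, and all of them were examined. The Red5-FTP strain (p1160) carried a Flag-TEV-protein A tag at the C terminus of Red5 and was grown in YEA, a rich medium, at 30 °C to an optical density of 1.8 to 2.2. The other 4 arrays came from strains with the same tag on Red1 (p919) or Mtl1 (p920), 2 arrays each, grown in the same way. All 3 strains carried leu1-32 and ura4D18, but the Red5-FTP strain was h+ and the others h90, with another ade6 allele. The study's strain list also gives a natNT2 marker at the tagged gene of the others and none for Red5-FTP. The bait thus cannot be told apart from mating type, ade6 allele and marker. RNA eluted with the protein (the IP) was labelled with Cy5 and total RNA of the input with Cy3, and the dyes were not swapped, so a dye effect and an enrichment cannot be told apart. RNA that binds to the beads without a tagged protein was not measured, because no untagged control is among the arrays analysed here. According to the study's methods, the arrays of a strain are biological replicates.

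Red5 is a zinc-finger protein of MTREC, the complex built around the RNA helicase Mtl1 and the zinc-finger protein Red1. With the poly(A)-binding protein Pab2 and the RNA-binding protein Rmn1 it forms one submodule of that complex. MTREC delivers RNAs to the nuclear exosome, the nuclease that degrades cryptic unstable transcripts (CUTs), meiotic mRNAs expressed in vegetative cells and unspliced pre-mRNAs. CUTs often arise antisense to genes or upstream of them, divergently from the promoter, where the total RNA of growing cells holds little signal. The purification asked which RNAs are bound by the complex when Red5 is the handle.

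The measurement was the log2 ratio of IP signal over input signal at each spot, centred on the median of the array's non-control spots. A positive value means enrichment in the Red5-FTP IP relative to that median, not an absolute amount of bound RNA, and a bulk ratio cannot tell few cells with much bound RNA from many cells with little. The probes are not tied to genes or genome positions in the files used here, so regions are given by probe numbers. The numbers run along the genome with the strands alternating. In the input of the dense part, the first 147000 probes, log2 signals of probes 2 apart correlated with an r of 0.72, and those of direct neighbours with an r of -0.19. Odd and even numbers were therefore read as the 2 strands, without knowing which is forward. The sparse part, the other 27063 probes, gave -0.23 for direct neighbours and 0.47 for probes 2 apart. Both parts had similar Red5-FTP ratios, with 20.9% and 21.2% of dense probes above 1 on replicates 1 and 2, and 20.5% and 20.4% of sparse probes.

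Detection differed between the replicates. The IP was well above background at 55.3% of tile probes on replicate 1 and 67.3% on replicate 2, and the input at 48.3% and 49.8%. No spot was saturated. Copies of 300 probes spread over each array had a median SD of the log2 ratio of 0.19 on both. Among the 111 and 127 of them well above background, this spot-to-spot error was 0.13 and 0.10. Replicate 1 lay on slide 1 with the first arrays of the other baits, replicate 2 on slide 2 with the second Red1-FTP array, and the second Mtl1-FTP array alone on slide 3. Any slide difference is thus part of the spread between the Red5-FTP replicates.

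Many probes had a signal only in the IP. Probes well above background in the IP but not in the input made up 11.2% of the tile probes on replicate 1 and 18.04% on replicate 2, with median log2 ratios of 2.52 and 1.71. The reverse state, input without IP, was rarer, at 4.19% and 0.52%, with medians of -1.59 and -1.94. Where both were detected (44.2% and 49.3%), the medians were -0.06 and -0.01. Where neither was (40.5% and 32.1%), they were -0.02 and -0.46, so on replicate 2 a probe without any signal sits below 0. An undetected signal lay near background, where the scanner output can hold an error estimate. The size of a ratio with an undetected channel is thus uncertain. IP-only probes of the replicates overlapped at 14781 positions, which is 75.9% of those on replicate 1 and 47.1% of those on replicate 2. They formed 360 runs of at least 5 probes on the odd strand and 381 on the even strand, and a run could include probes that were not IP-only. The longest odd run was sp40c_93047 to sp40c_93075, 15 probes with mean log2 ratios of 3.65 and 2.87 on replicates 1 and 2 and a median IP signal of 309 and 145 units. In that run the IP was detected at 13 probes and the input at 1 on each array. The longest even run was sp40c_40566 to sp40c_40604, 20 probes at 2.16 and 1.93, with the IP detected at 17 and 18 and the input at 1 and 3. The other baits averaged 1.96 to 3.46 and 1.103 to 2.16 over the same probes.

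Probe by probe the replicates correlated, with a wider spread on replicate 1. Over all tile probes the log2 ratios correlated with a Pearson r of 0.817, a description across sites that share arrays and neighbours. Over the 74033 probes detected in both channels of both arrays, r was 0.836, and the SD over probes was 1.22 on replicate 1 and 0.97 on replicate 2. Ratios above 1 on both arrays were found at 25961 probes, against 36209 on replicate 1 and 36743 on replicate 2 taken singly. Ratios below -1 on both arrays were found at 7933 probes, against 24861 and 11648 singly. A probe above 1 on one array and below -1 on the other was rare, with 64 high on replicate 1 and 306 high on replicate 2. To reduce spot error, means of 10 successive same-strand probes were formed in the dense part, giving 14700 windows. Window means had an r of 0.855 between replicates and the same sign in 11951 windows (81.3%). No window lay beyond 1 in opposite directions.

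With limma, fitted on all 6 arrays with 1 coefficient per bait, 4021 windows (27.4% of those tested) were enriched in the Red5-FTP IP at a Benjamini-Hochberg adjusted p under 0.05 and 1474 (10.03%) were depleted. Enriched windows had median log2 ratios of 1.26 on replicate 1 and 1.13 on replicate 2, with window means from 0.49 to 4.56. The median mean of 1.17 corresponds to a 2.25-fold enrichment. Depleted windows had medians of -1.21 and -0.71, with means from -2.76 to -0.50. Replicate 1 held the larger size in 82.5% of depleted windows and in 65.9% of enriched ones. Without replicate 1, when the remaining array borrows its spread from the other baits, 105 windows were depleted and 1944 enriched. The calls are relative to the array centre: with the mean of the spots as the centre, 43.9% of calls were enrichments, against 73.2% with the median. Of the calls, 48.2% were enrichments when only probes detected in every input were kept, 63.1% after loess (an intensity-dependent normalization of each array), 98.1% when ratios were tested against a log2 of 1 and 94.9% without Red5-FTP replicate 1.

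**Figure D1:**
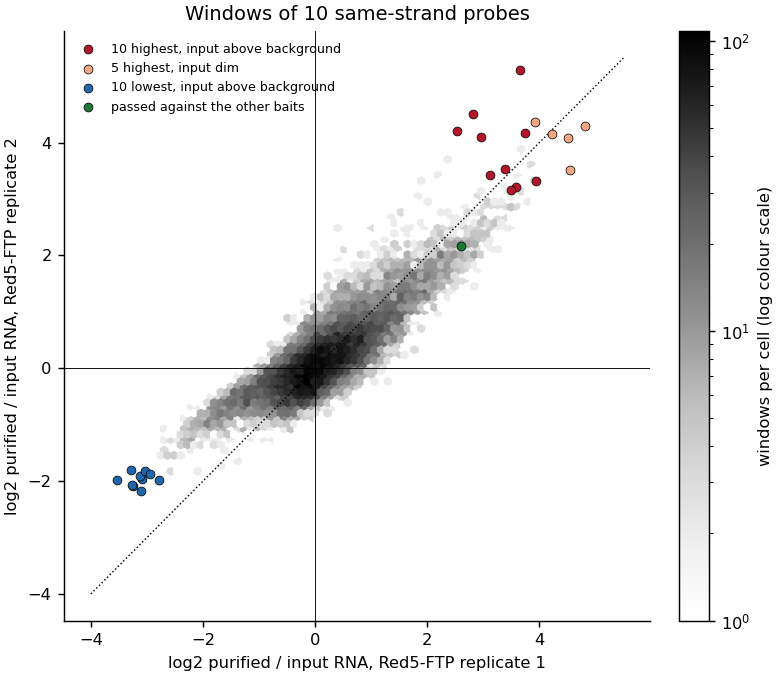
Mean log2 IP over input of 14700 windows of 10 same-strand probes, Red5-FTP replicate 1 on the horizontal axis and replicate 2 on the vertical axis. Grey depth is the number of windows per cell on a log colour scale, coloured points are the windows described by name, and the dotted line marks equal values. The lowest windows lie above the dotted line, at -3.53 to -2.79 on replicate 1 and -2.17 to -1.80 on replicate 2.

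Enriched and depleted windows differed in how often their input was detected. The input was detected at 80% or more of the probes, on both arrays, in 523 enriched windows (13.0%) and in 937 depleted windows (63.6%), against 29.5% of all windows. It was detected at 20% or fewer in 1604 enriched windows (39.9%) and 135 depleted windows (9.16%), against 31.9% of all windows. These inputs are also the denominators of the ratios that made the calls. Probes were also ranked by the input of the 3 arrays of the other replicate number, which leaves each array's own input out of the ranking. From the lowest to the highest decile, the mean log2 ratios of replicate 1 were 0.04, 0.48, 0.86, 0.72, 0.65, 0.44, 0.10, -0.14, -0.26 and -0.31. Those of replicate 2 were -0.18, 0.08, 1.11, 0.83, 0.65, 0.34, 0.13, 0.05, 0.02 and -0.01. Both arrays thus peaked in decile 3, where the IP was detected at 21% and 46.9% of probes and the input at 1.18% and 1.23%, and declined from there to decile 10. Decile 3 minus decile 10 was 1.17 and 1.12 (1.15 ± 0.04, SD, n = 2), against 1.19 ± 0.27 on the 4 arrays of the other baits. The difference of -0.05 had an exact two-sided permutation p of 0.933. Red5-FTP minus Red1-FTP was -0.12 within slide 1 and 0.09 within slide 2, and Red5-FTP minus Mtl1-FTP was 0.26 within slide 1.

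**Figure D2:**
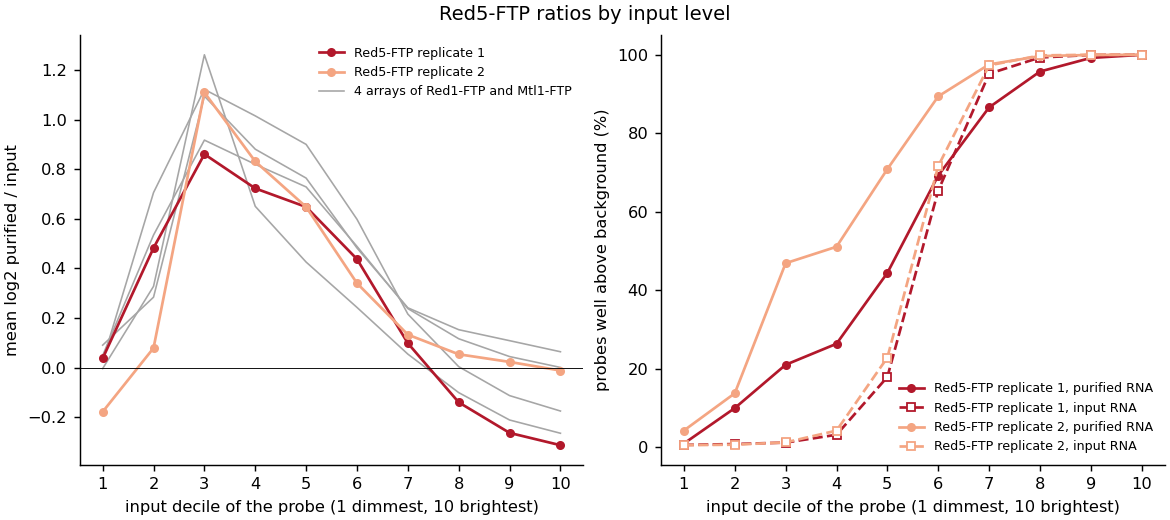
Left, mean log2 IP over input by decile of the input signal, from dimmest to brightest, for the Red5-FTP replicates and, in grey, the 4 arrays of the other baits; right, the percentage of probes well above background in the IP (filled points) and the input (open squares) of the Red5-FTP arrays. Both Red5-FTP curves peak in decile 3, at 0.86 and 1.11, where the input is detected at about 1.2% of probes.

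Windows were then classed by the inputs of the other baits alone, so that the Red5-FTP arrays took no part in the classes. A larger share of strands opposite to a transcribed strand than of transcribed strands was enriched, and a smaller share was depleted; these are counts with no test. Of 1986 windows opposite to transcribed ones, 510 (25.7%) were enriched and 48 (2.42%) depleted, and their median log2 ratios were 0.07 and 0.28 on replicates 1 and 2. Of the 1986 transcribed windows, 183 (9.21%) were enriched and 506 (25.5%) depleted, with medians of -0.35 and -0.07. Quiet positions, with neither strand transcribed, held 918 windows, of which 295 (32.1%) were enriched and 35 (3.81%) depleted. Positions with both strands transcribed held 374 windows, 95 enriched (25.4%) and 54 depleted (14.4%). All others, 9436 windows, met none of these definitions, and 2938 of them (31.1%) were enriched and 831 (8.81%) depleted. Against the background of 27.4% and 10.03%, opposite windows thus lay near the enriched share of all windows and below the depleted share, while transcribed windows lay below the first and above the second. The input was detected at 11.4% and 9.48% of probes in opposite windows of the 2 replicates, against 93.02% and 96.0% in transcribed windows.

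The strands themselves were called alike. The odd strand held 1978 enriched and 757 depleted windows of 7350, and the even strand 2043 and 717. Both strands were enriched at 834 of 7350 positions, which accounts for 41.5% of the enriched windows. Enrichment opposite to depletion was found at 171 positions, and depletion of both strands at 111. Across positions, the ratios of the 2 strands correlated with an r of 0.37 on replicate 1 and 0.30 on replicate 2.

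A composite view used transcribed stretches. A stretch was 10 or more adjoining probes of a strand, all detected in the inputs of the other replicate number apart from single gaps, with the other strand quiet. There were 1549 such stretches for replicate 1 and 1584 for replicate 2, with median lengths of 23 and 22 probes. Side A is the low-numbered side of odd stretches and the high-numbered side of even ones, which is the same end of the transcript throughout if odd and even numbers are opposite strands, and no source used here says whether it is the 5′ or the 3′ end. Inside stretches the transcribed strand averaged -0.01 and 0.04 on replicates 1 and 2, and the opposite strand 0.39 and 0.49. The opposite strand was the higher in 1079 stretches (69.7%) on replicate 1 and in 1221 (77.1%) on replicate 2. The difference was 0.40 and 0.45 (0.43 ± 0.04, SD, n = 2), but it changed sign to -0.028 with normexp, a model-based correction of the background that shrinks ratios of dim spots. The other baits averaged 0.54 ± 0.18 (SD, n = 4), and the difference to them of -0.11 had an exact permutation p of 0.667.

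Averaged over the 10 probes of a flank, the ratios outside the stretches were higher than inside on both strands. The flanks were taken only where the surroundings were quiet in the input, so they come from part of the stretches, while the inside means cover all. At the first probe beyond side A, replicate 2 was not higher. It had -0.01 on the transcribed strand and 0.33 on the opposite strand, against 0.04 and 0.49 inside. Beyond side A, in 652 and 707 flanks of 10 probes that were quiet in the input, the opposite strand averaged 1.18 and 0.79 and the transcribed strand 0.75 and 0.43. Beyond side B, in 270 and 303 quiet flanks, the opposite strand averaged 1.24 and 0.93 and the transcribed strand 0.52 and 0.31. The opposite strand peaked at the fifth probe beyond side A, with 1.72 and 1.16. Beyond side B it peaked closer to the stretch, at 1.69 on the third probe in replicate 1 and at 1.32 on the second probe in replicate 2. The IP was detected at 40.3% and 47.6% of opposite-strand probes beyond side A, against 15% and 16.4% for the input, so the input of most of these probes was not measured above background. Opposite beyond side A minus transcribed inside was 1.19 and 0.75 (0.97 ± 0.31, SD, n = 2), against 0.94 ± 0.24 (n = 4) with the other baits (exact permutation p = 0.867). With normexp it was 0.30, and with no rule on quiet neighbours 0.82.

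Along the transcribed strand itself the ratio fell from one end to the other. Each stretch was divided into 10 equal bins. Bin 1, at side A, averaged 0.31 and 0.19 on replicates 1 and 2, and bin 10, at side B, -0.09 and -0.15. The side A end (3 bins) minus the side B end (3 bins) was 0.27 and 0.24 (0.25 ± 0.02, SD, n = 2). The other baits gave 0.32 ± 0.08 (n = 4), with an exact permutation p of 0.333. The 4 exact tests of Red5-FTP against the other baits cannot go below p = 0.0667 with 2 of 6 arrays, and all had an adjusted p of 0.933. Within slide 1, Red5-FTP minus Red1-FTP was -0.18 for the strand difference inside stretches, 0.01 for the side A flank and -0.09 for the end difference. On slide 2 these values were -0.31, 0.08 and -0.05. Red5-FTP minus Mtl1-FTP on slide 1 was -0.01, 0.37 and -0.13.

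**Figure D3:**
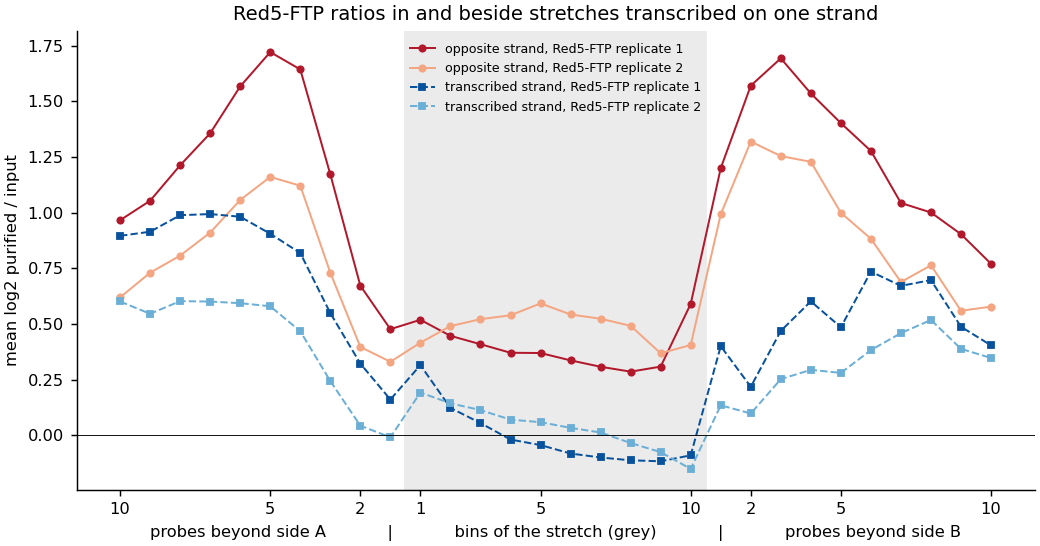
Mean log2 IP over input of the opposite strand (circles, solid) and the transcribed strand (squares, dashed) for the Red5-FTP replicates, over 10 equal bins of each stretch (grey) and over 10 probes beyond either side where the input was quiet. The opposite strand peaks beyond side A at 1.72 and 1.16 and stays above the transcribed strand inside the stretch; the transcribed strand declines towards side B.

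Enriched windows were spread along the probe order, many as single windows, and a larger share of the depleted windows lay in long runs. The enriched windows formed 2012 runs of adjoining same-strand windows, of which 1006 were single windows and 121 held 5 or more, with 767 windows (19.1%) in the long runs. The depleted windows formed 693 runs, 425 of them single, and the 75 runs of 5 or more held 523 windows (35.5%). In blocks of 1000 probe numbers, 147 in all with 100 windows each, the number of enriched windows had a median of 28 and ranged from 13 to 59. The number of depleted windows had a median of 9 and a range of 0 to 33. Block means of the replicates correlated with an r of 0.862. The block with most enrichment, sp40c_91001 to sp40c_92000, had 59 enriched windows and mean log2 ratios of 0.84 and 1.06. Block 115 followed with 47, at 0.95 and 0.89. Block 143 had 46 and blocks 41 and 142 had 45 each, and block 142 had its input detected at only 19.8% and 21.4% of probes. Block 24 had the most depleted windows, 33, at -0.27 and -0.02, followed by block 104 with 32, at -0.26 and -0.03. Block 18, with 28, had lower means of -0.32 and -0.14.

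**Figure D4:**
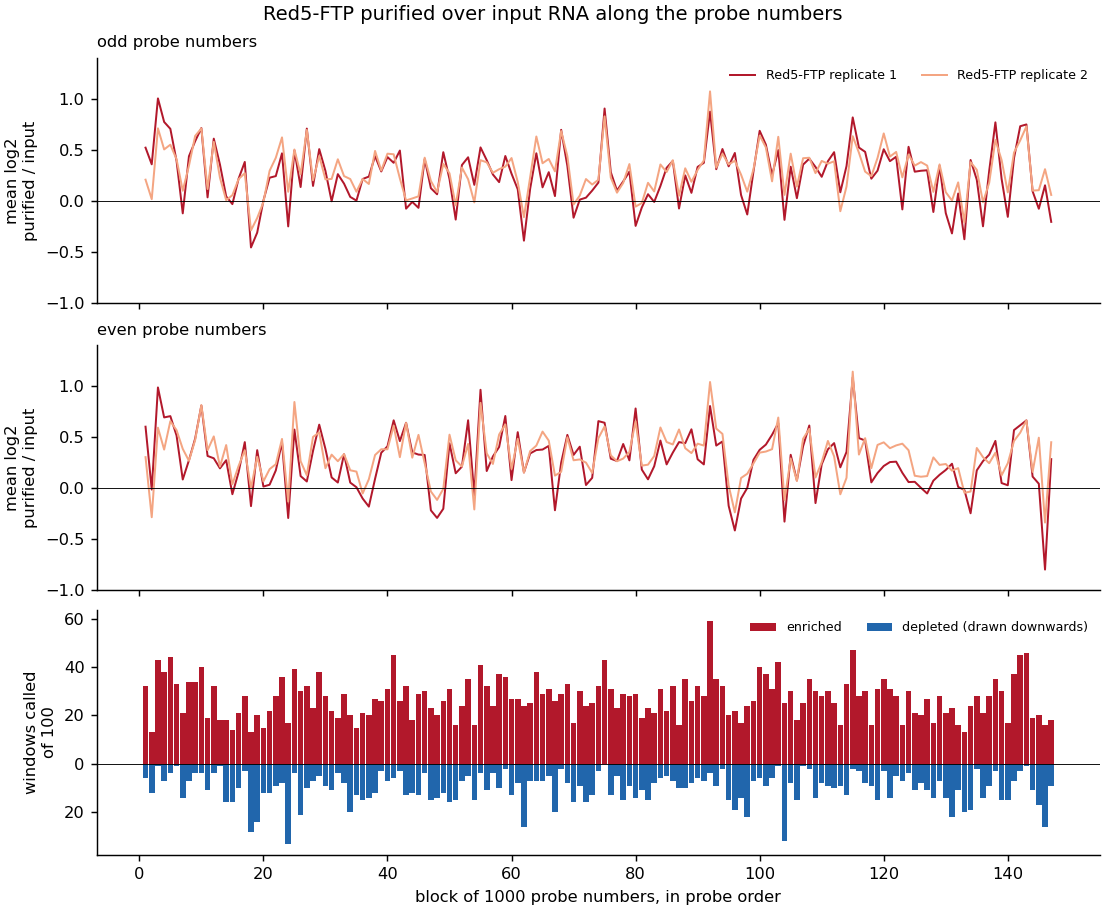
Upper panels, mean log2 IP over input per block of 1000 probe numbers along the dense part, for odd and even numbers, with the Red5-FTP replicates as 2 lines; lower panel, the number of enriched windows (upwards) and depleted windows (downwards) of 100 per block. The tallest bar is block 92, with 59 enriched windows.

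The longest enriched run, sp40c_2741 to sp40c_3099, covered 18 windows of the odd strand. Its mean log2 ratio was 2.81 on replicate 1 and 2.46 on replicate 2. Runs hold only called windows, and the adjusted p of these (limma) was 0.0368 or lower. The other baits averaged 2.07 to 2.83 there, so the Red5-FTP arrays lay within or close to their range. The profile in this run was a comb of narrow peaks. Shifted against itself by 10 to 60 same-strand probes, it matched best at a shift of 35 probes (70 numbers) on both strands and both arrays, with an r of 0.55 and 0.53 on the odd strand and 0.56 and 0.60 on the even strand. The comb was noticed in the plotted profiles and then measured, so these values describe it and test nothing. Ratios above 6 on both arrays came in 4 groups of 3 adjoining odd probes, starting at sp40c_2829, sp40c_2899, sp40c_2967 and sp40c_3037. The first of these probes had 9.16 and 8.78 and the third group's first probe, sp40c_2967, had 9.14 and 8.47. The input of both probes was undetected on replicate 1, so the sizes of 9.16 and 9.14 are uncertain. Over the whole run the IP was detected at 127 and 130 of 180 probes and the input at 63 and 65. The other baits reached 8.23 to 9.37 at sp40c_2829. The even strand of the same locus was enriched at 16 of 18 windows and averaged 2.01 and 1.35, and its windows from sp40c_2782 to sp40c_3080 formed the third longest run (15 windows, 2.23 and 1.55). Repeated sequence could not be examined, because no probe sequences were used here.

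The second longest enriched run, sp40c_53942 to sp40c_54260, held 16 windows of the even strand. It averaged 2.20 and 1.996, against 1.64 to 2.27 with the other baits, and its mean of 2.10 became 1.397 with normexp. Its opposite strand averaged 0.66 and 0.28, with 5 of 16 windows enriched, where 27.4% of all windows were. The IP was detected at 122 and 136 of 160 probes and the input at 61 and 70, so much of this run, too, was a signal of the IP alone.

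The longest depleted run, sp40c_17681 to sp40c_18019, covered 17 windows of the odd strand. Its median signals were 3941 and 5531 units in the IP, against 20483 and 16106 units in the input. The mean log2 ratio was -2.02 on replicate 1 and -1.30 on replicate 2. Every window passed by the definition of a run (limma adjusted p of 0.0343 or lower). The other baits averaged -1.09 to -0.14, all above both Red5-FTP arrays over the whole run. In 6 of 17 windows both Red5-FTP arrays lay below all 4 others, against 9.16% of all windows. The run was chosen for low Red5-FTP ratios, which favours such windows, so this comparison tests nothing. The opposite strand averaged -0.70 and -0.39 with Red5-FTP and 0.13 to 1.05 with the other baits, and 14 of its 17 windows lay below all 4 others. None of the 17 windows of the run passed the test of the difference (limma adjusted p of 0.416 to 0.818). Immediately before the run, the even-strand probes sp40c_17660 to sp40c_17674 averaged 4.69 and 3.84, against 3.07 to 4.49 with the other baits. These 8 probes were picked from the plotted profile, and their input was detected at only 3 and 4 of them on Red5-FTP replicates 1 and 2.

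The next longest depleted runs were on the even strand. The run sp40c_47842 to sp40c_48140, 15 windows, averaged -2.62 and -1.62, against -2.06 to -0.76 with the other baits. Its input was detected at 136 and 138 of 150 probes and its IP at only 59 on replicate 1 but 134 on replicate 2. The replicate with less detected IP is thus the one with the stronger depletion, and the part of detection in this difference was not tested. With normexp the mean of the run, -2.12, became -1.25. The run sp40c_23302 to sp40c_23560, 13 windows, shared its length with other runs and was taken for its mean. It averaged -1.76 and -0.99, against -1.23 to -0.38 with the other baits.

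Single windows were named where the input was well detected. The locus with the highest window, sp40c_9302 to sp40c_9340 on the even strand, held 2 of the 10 highest windows and averaged 3.09 on replicate 1 and 4.75 on replicate 2. The other baits averaged 2.96 to 4.41, so replicate 1 lay inside their range and replicate 2 above it. Its window sp40c_9322 had 3.65 and 5.29 (mean 4.47, SE 0.33, limma adjusted p = 0.000113). The enrichment went on past the locus, with 5.40 and 5.10 over sp40c_9342 to sp40c_9354, and a separate block of 7 odd probes, sp40c_9379 to sp40c_9391, had 4.59 and 4.34, both picked from the plotted profile. The input was detected at 6 of 7 probes on both arrays in the former, but at 2 and 3 of 7 in the latter.

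The window sp40c_111561 on the odd strand had 3.75 and 4.16 (mean 3.96, SE 0.20, adjusted p = 5.18e-05 by limma), with a median signal of 4500 and 8396 units in the IP against 371 and 560 units in the input. Its opposite strand was enriched as well, at 3.32 and 3.81. The remaining high windows were sp40c_123722 (2.82 and 4.51), sp40c_107102 (3.94 and 3.32), sp40c_33201 (2.96 and 4.09), sp40c_3001 (3.39 and 3.53), sp40c_110882 (3.59 and 3.21), sp40c_133501 (3.49 and 3.15) and sp40c_112122 (3.13 and 3.42). Their adjusted p-values (limma) ranged from 5.18e-05 to 0.000228. At sp40c_33201, with 2387 and 2498 units in the input, both Red5-FTP arrays lay below the other baits (4.41 to 5.05). At sp40c_112122 both lay above them (1.42 to 2.79). Neither difference passed (limma adjusted p = 0.818 and 0.46).

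The windows sp40c_110882 and sp40c_133501 had almost the same values on every array, and this was followed up after their values were seen. The 30 even probes from sp40c_110862 to sp40c_110920, set against the 30 odd probes from sp40c_133537 down to sp40c_133479, correlated with an r of 0.944 on replicate 1 and 0.879 on replicate 2. Read in the same direction, r was 0.678 and 0.585. The placement was the best of 120 tried on replicate 1, and the other baits gave 0.826 to 0.949. Both windows are counted here, and whether their probes share sequence was not tested.

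The 10 lowest windows with a detected input came from 3 places. The 8 windows from sp40c_47882 to sp40c_48040 lie inside the depleted run described above and averaged -3.15 and -1.94, and with normexp their window means were -1.63 to -1.37. The other windows were sp40c_53282 (-3.11 and -2.17, adjusted p = 0.000693 by limma) and sp40c_44321 (-3.09 and -1.97, adjusted p = 0.00103). At sp40c_53282 the median signal was 279 and 410 units in the IP, against 2962 and 2205 units in the input. The other baits had -2.99 to -1.61 there.

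Where the input was undetected at most probes, the 5 highest windows were given as lower bounds, with the input of a probe raised to the lowest tile signal well above background on its array wherever it lay under it. Each bound was taken on the mean log2 ratio of the 2 arrays, and undetected IP signals entered it unchanged. The window sp40c_91441, in the block with most enrichment, had log2 ratios of 4.81 and 4.30 and a bound of 8.87-fold. The bounds were 9.40-fold for sp40c_31581 (4.50 and 4.08), 7.33-fold for sp40c_65882 (4.23 and 4.15), 7.05-fold for sp40c_116342 (3.93 and 4.36) and 6.84-fold for sp40c_4641 (4.55 and 3.52). A single array could lie lower, with log2 bounds of 2.40 at sp40c_116342 on replicate 1 and 2.37 at sp40c_4641 on replicate 2. Their adjusted p-values (limma) were 5.18e-05 to 0.000294, and with normexp their mean log2 ratios were 2.42 to 2.84. The opposite strand of these windows was lower in every case, from 2.07 and 1.27 at sp40c_31581 to 0.19 and -0.14 at sp40c_116342. The windows were chosen for their high ratios, which favours a lower opposite strand.

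**Figure D5:**
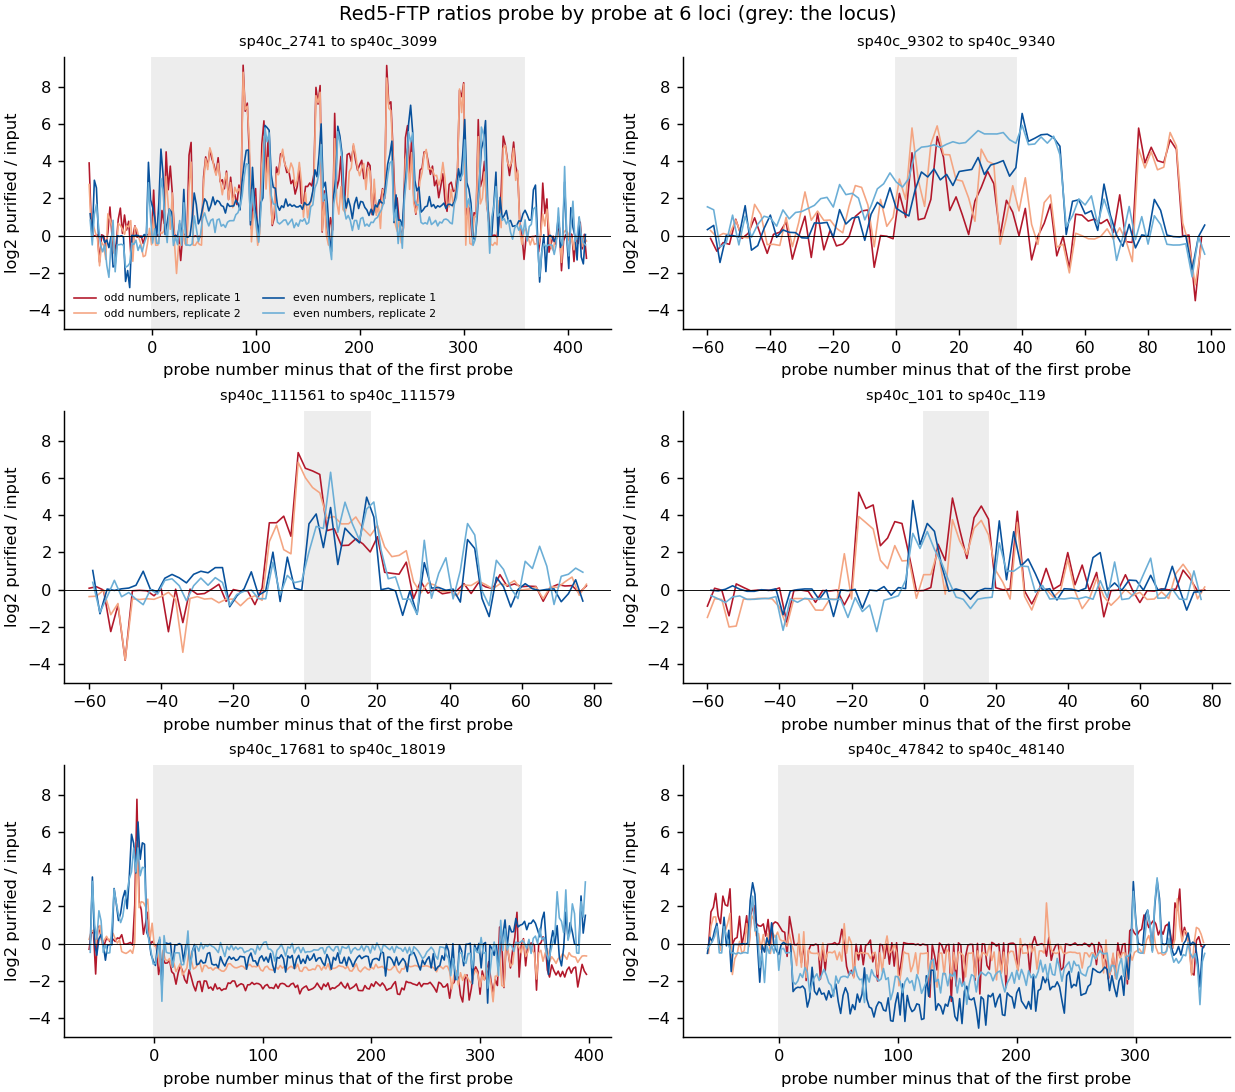
Log2 IP over input probe by probe at 6 loci (grey) and their surroundings, odd numbers in red shades and even numbers in blue shades, with a line per Red5-FTP replicate; the horizontal axis is the probe number minus that of the first probe. At sp40c_2741 to sp40c_3099 the odd strand has 4 peaks of up to 9.16, a ratio over an undetected input in replicate 1. At sp40c_17681 to sp40c_18019 the odd strand lies below 0 at 166 of 170 probes in replicate 1 and 169 in replicate 2.

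The Red5-FTP profile was then set against the other baits. The window means of Red5-FTP replicate 1 correlated with those of Red1-FTP at 0.913 and 0.656 and of Mtl1-FTP at 0.798 and 0.875 (replicates 1 and 2). For Red5-FTP replicate 2 the values were 0.901 and 0.850 with Red1-FTP and 0.867 and 0.826 with Mtl1-FTP. The Red5-FTP replicates correlated with each other at 0.855, within this range. Of the Red5-FTP enriched windows, 94.0% were above 0 on all 4 other arrays, as were 43.3% of all windows. Of the depleted windows, 84.6% were below 0 on all 4, as were 18.8% of all windows. Both Red5-FTP arrays lay above all 4 others in 722 windows (4.91%) and below them in 1347 (9.16%). In the test of the difference (limma), 1 window was higher with Red5-FTP (0.00680% of those tested) and 0 were lower (0%). Without adjustment, 310 windows were higher and 480 lower at p under 0.05. Against Red1-FTP alone 0 were higher and 0 lower (170 and 558 unadjusted), and against Mtl1-FTP alone 1 was higher and 6 lower (415 and 564 unadjusted).

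The window that passed was sp40c_101 to sp40c_119 on the odd strand. Its log2 ratio was 2.61 and 2.17 with Red5-FTP, against -0.24 and -0.06 with Red1-FTP and -0.07 and -0.08 with Mtl1-FTP. The difference was 2.50 with an SE of 0.23 (limma adjusted p = 0.0486), and the groups did not overlap. No input probe of this window was detected on either Red5-FTP array, while the IP was detected at 70% of its probes on both. With the input raised as above, the log2 bounds were 0.70 and 0.50 on replicates 1 and 2, or 1.52-fold for their mean. The undetected IP probes entered these bounds unchanged, as signals near background that can be error estimates. The window's mean log2 ratio of 2.39 became 1.03 with normexp. The 8 odd probes just before it, sp40c_83 to sp40c_97, averaged 3.54 and 2.37 with Red5-FTP and 0.69 to 1.57 with the other baits, and were picked from the plotted profile. Their input was detected at only 1 of 8 probes on each Red5-FTP array, so most of these ratios have an uncertain size. Without 1 array at a time the difference stayed between 2.28 and 2.72. The call was kept without Red1-FTP replicate 1 or 2 (adjusted p = 0.028 and 0.0257, limma), but not without Red5-FTP replicate 1 or 2 (0.422 and 0.111) or Mtl1-FTP replicate 1 or 2 (0.491 and 0.334).

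Other windows stood apart from the other baits without passing, and the following were chosen after their values were seen. The window sp40c_113941 was at -0.49 and -0.92 with Red5-FTP, against 1.43 to 1.97 (difference -2.38, limma adjusted p = 0.0816). The adjoining sp40c_113961 had -0.42 and -0.36 with Red5-FTP, against 1.47 to 1.85. In both, the IP was detected at 40% of probes on each Red5-FTP array and the input at 40% and 30%. The window sp40c_53802 had -0.52 and -0.50 with Red5-FTP, against 1.09 to 1.64 (adjusted p = 0.0823, limma). Its IP and input were each detected at only 10% of probes on both Red5-FTP arrays. Its Red5-FTP values are thus mostly ratios of signals near background, which can be error estimates. In the other direction, sp40c_3341 had 2.94 and 2.47 with Red5-FTP, against 0.83 to 1.08 (difference 1.77, limma adjusted p = 0.139). With slide as a random block all 4 passed (limma adjusted p = 0.0245 for the first 3 and 0.0295 for sp40c_3341), and with normexp all but sp40c_53802 did (0.0359 for sp40c_113941 and sp40c_113961, 0.0496 for sp40c_3341 and 0.248 for sp40c_53802).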

How the data were processed

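Purified (Cy5) and input (Cy3) RNA of 1 strain were hybridised to each custom Agilent tiling array and read with Feature Extraction 10.7.3.1, per the labels. The deposited processed intensity of each spot was background-subtracted, spatially detrended and lowess dye-normalized by the authors' scanner software, which writes an error estimate where a signal is near background. The authors' log10 ratio and its p-value per spot were deposited in the same files; they were used only to check the direction and scale of the values. The series' value table holds log2 ratios deposited by the authors, with 0 where a ratio was not significant, and served as an alternative. "Well above background" is the scanner software's own call.

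The log2 ratio of processed signals was centred on each array's median over non-control spots, and spots marked as outliers (9 and 5 tile spots of the Red5-FTP arrays) were left out. Windows of 10 same-strand probes with at least 5 values were tested with limma 3.58.1 in R 4.3.3, with all 6 arrays, 1 coefficient per bait and Benjamini-Hochberg adjustment at 0.05. Other values were computed with numpy 2.4.6, pandas 2.3.3 and scipy 1.17.1. A transcribed window had at least 80% of its probes well above background in the inputs of the other baits and at most 20% on the other strand; both strands had at least 80% each, opposite windows at most 20% with at least 80% on the other strand, quiet windows at most 20% on each. Flanks and opposite strands of stretches counted as quiet up to a detected share of 30%.

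Windows were named by rule: the 10 highest and 10 lowest calls of the same sign on both arrays with at least 80% of input spots detected on each, the 5 highest with at most 20%, the 3 longest runs in either direction, and the windows passing against the other baits. The members and rules were chosen with earlier results of these data known. The number of arrays limits the precision. Alternatives changed the background correction, dye normalization, centre, filter, values, blocks, window size and summary, stretch rules and arrays. The dense part was taken to end where the correlation of probes 2 apart, in blocks of 1000, changed level. The window test was checked only on simulated data with independent noise on every array. Slides shared between arrays were not simulated.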

Additional observations from a re-analysis of the deposited data

Results flagged for a closer look

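The window sp40c_101 to sp40c_119 stood out because its Red5-FTP ratio differed from that of the other baits in the test of the difference itself. Red5-FTP minus the other baits was 2.50 on the log2 scale (limma adjusted p = 0.0486), and both Red5-FTP arrays were above all 4 other arrays. It was the only one of 14700 windows that passed, and its adjusted p ranged from 0.0143 to 1 over the alternatives.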

How the results depend on the processing

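The strand difference inside stretches was the only value that changed sign, to -0.028 with normexp. It was 0.95 before dye normalization, 0.22 after loess and 0.55 in stretches of at least 20 probes. Opposite beyond side A minus transcribed was 0.30 with normexp and 1.80 before dye normalization. The end difference was 0.20 with normexp and 0.29 in stretches of at least 20 probes. Decile 3 minus decile 10 was 0.32 with normexp, 2.19 before dye normalization, 0.82 after loess, 1.06 in the value table and 0.087 with detected input, which keeps 204 and 213 probes of decile 3, selected by the ratio's own denominator. Leaving out 1 array at a time gave 0.40 to 0.44, 0.72 to 1.14, 0.24 to 0.28 and 1.03 to 1.24 for these 4 contrasts. The cause of these changes was not tested.

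Enriched windows numbered 813 of 6069 with only probes detected in every input, 2676 in the value table, 759 when tested against a log2 of 1, 2420 of 7350 windows of 20 probes, 6857 of 29400 windows of 5 probes, 2403 with window medians and 1944 to 4416 without 1 array. Depleted windows numbered 3494 with the mean as the centre, and 874, 15, 743, 2648 and 795 under the filter, the log2 of 1, windows of 20, windows of 5 and medians. They numbered 105 to 1735 without 1 array. Fewer windows or arrays enter some of these counts.

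Windows higher than with the other baits numbered 0 before dye normalization, after loess, with the mean as the centre, with the filter, in the value table, against a log2 of 1, in windows of 20 and with medians, 2 with slide as a random block and 0 to 2 without 1 array. Lower windows numbered 5 with normexp, 8 with slide as a random block, 3 in windows of 5 and 0 to 5 without 1 array. The call of sp40c_101 was lost under normexp (adjusted p = 0.0865, limma) and the mean as the centre (0.0579), and was kept with slide as a random block. It was also lost after loess, in the value table, with medians, against a log2 of 1 and with the replicate number as a block, where 0 windows were higher.

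The replicate block gave 3785 enriched, 1203 depleted, 0 higher and 0 lower windows. The replicate numbers were not taken as pairs: replicate differences correlated at 0.67 between Red5-FTP and Red1-FTP, whose same-numbered arrays also share slides, and at -0.55 between Red5-FTP and Mtl1-FTP, whose second arrays do not. Of 435 values for windows named by rule for their own ratio, 431 kept their call; 4, all in the depleted run at sp40c_47842, lost it when tested against a log2 of 1. Arrays have no read depth: 40.5% and 32.1% of probes had neither channel above background.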

Other observations

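Besides the tile probes, 1577 non-control spots with other names were on each array. Their median log2 ratio was -0.06 and -0.50 on Red5-FTP replicates 1 and 2, and the IP was well above background at 9.83% and 14.6% of them, against 17.3% and 12.9% for the input. These medians are close to those of tile probes detected in neither channel, -0.02 and -0.46. In windows opposite to transcribed ones, the IP was detected at 18.4% and 36.3% of probes and the input at 11.4% and 9.48%. The input was thus called detected more often at the spots with other names than in those windows, and the IP less often. Which sequences these spots carry was not examined.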
